A study of Homo sapiens with 28 samples.

Results

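Transcripts of SK-N-MC cells in which EWS-FLI1 had been silenced for 48 h were compared with those of the same cells after 48 h of CHD4 silencing. SK-N-MC is an established line of Ewing sarcoma, which arises in bone or soft tissue and depends on the fusion protein EWS-FLI1. Every culture, controls included, carried an inducible short hairpin RNA and received 100 ng/ml doxycycline for 48 h. The comparison used 9 of the 28 libraries of the series, 3 with shFLI1, 3 with shCHD4#1 and 3 with shCHD4#2, which the labels call biological replicates. EWS-FLI1 silencing rests on 1 hairpin and CHD4 silencing on 2, all in a single line. The 5 shScramble libraries of 48 h entered no test and are given as a background. A gene was called when shFLI1 differed from the mean of both CHD4 hairpins and from each of them in the same direction, at a limma adjusted p below 0.05 in all 3 comparisons. Differences are log2 of shFLI1 minus the mean of the CHD4 hairpins, on normalised counts plus 1, so a positive value means higher with shFLI1. Values given per library are normalised counts of replicates 1, 2 and 3 in that order, and the shScramble values are the lowest and highest of 5. Where 3 such values are given for each knockdown and the gene was called, no shFLI1 value lay within the range of the CHD4 libraries. Of 35488 genes, 21837 had a mean of at least 10 over the 9 libraries and were tested.

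EWS-FLI1 joins the activation domain of EWSR1 to the DNA-binding domain of the ETS factor FLI1. It activates genes near GGAA motifs, above all where these are repeated, and it holds down other genes, many of them mesenchymal. CHD4 is the motor subunit of NuRD, a complex of nucleosome remodelling and histone deacetylation, which slides nucleosomes and removes histone acetylation and is best known for repression. The comparison shows which transcripts part the loss of the fusion from the loss of the remodeller in cells of the same origin.

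Recovered reads ranged from 46868774 to 59691401 over the 9 libraries, and no replicates were alike within counting noise. Replicate 3 of shFLI1 stood apart. In it 265 genes with at least 100 counts lay over 8-fold above both other shFLI1 libraries, against at most 8 such genes in any other of the 28 libraries. These genes summed to 137609 counts in shFLI1 replicate 3, which is 0.269% of its total, and to 3197 and 3285 in replicates 1 and 2, against 3120 to 8926 in the CHD4 libraries. The bone matrix protein gene SPP1 had 0, 0 and 3453 counts in shFLI1 replicates 1, 2 and 3, FAT1, an atypical cadherin, 1.18, 0 and 1831, and the epithelial cadherin gene CDH1 2.36, 20.7 and 783. None of these 3 genes, chosen after their values were seen, was called. Among the 265 genes 27 were called higher and 1 lower, against 22.6% of all tested genes in each direction, and 26 were called higher without that library. The 265 genes were chosen by their values in replicate 3, and the fit without it kept the filter over all 9 libraries. These counts are therefore a description. Of 553 tested members of the gene lists 5 were among the 265 (CDH1, IGFBP3, MYL9, PSMB8 and UPP1). The cause of the difference was not tested, and some counts that move with the library are given with and without it. Other list counts moved as well. Glycolysis and hypoxia genes called lower, for example, were 12 with it and 10 without it, and mitosis genes called lower 19 and 20. Replicates 1 and 2 of both CHD4 hairpins held 0.313 to 0.388% processed pseudogene reads, while replicate 3 of each held 0.223 to 0.272% and shFLI1 libraries 0.239 to 0.254%. Of 699 processed pseudogenes tested, 29.3% were called lower with shFLI1 in all 9 libraries and 6.87% against the replicate 3 libraries of the CHD4 hairpins alone, where fewer libraries entered the test. All tested genes were called lower in 22.6%, and protein-coding genes in 24.8% with all 9 libraries and in 21.2% with those 5. Mitochondrial ribosomal RNA took 22.1 to 22.5% of reads with shFLI1, against 16.3 to 19.5% with the CHD4 hairpins (exact permutation test, two-sided p = 0.0119, the smallest that 84 splits allow). It took 16.3 to 17.5% in replicates 1 and 2 of the CHD4 hairpins and 17.7 to 19.5% in replicate 3. The permutation test treats the 9 libraries as exchangeable and takes no account of this difference. The 10 most abundant genes, with mitochondrial ribosomal RNA not left out, took 28.9 to 30.5% with shFLI1 and 20.6 to 24.3% with the CHD4 hairpins (exact permutation test, two-sided p = 0.0119). Both measures thus share reads and are not separate results. The part of these library differences in the results was not tested unless a value is given.

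The targets of the hairpins separated the groups. CHD4 (ENSG00000111642, chromosome 12, 6570082 to 6614524, minus strand) had 13153, 12493 and 13482 in shFLI1 libraries, against 2959, 3126 and 3482 with shCHD4#1 and 2722, 2801 and 2727 with shCHD4#2, and 9343 to 13099.5 in shScramble. That was log2 2.14 (SE 0.07, limma adjusted p = 1.35e-08), with no overlap. FLI1 (ENSG00000151702, chromosome 11, 128686535 to 128813267, plus strand) had 1612, 1829.6 and 1566 in shFLI1 libraries, against 3673, 3037 and 3704 with shCHD4#1 and 3343, 2634 and 2945 with shCHD4#2, and 3091 to 4306 in shScramble. It was lower with shFLI1 by log2 -0.94 (SE 0.10, limma adjusted p = 1.79e-05), and reads of the fusion cannot be told from reads of unfused FLI1. EWSR1, which supplies the other end of the fusion, had 12828, 13067 and 13700.5 in shFLI1 libraries, against 14171, 12759 and 14895 with shCHD4#1 and 12404, 11685 and 14775 with shCHD4#2. These EWSR1 values overlapped (log2 -0.02, SE 0.09, limma adjusted p = 0.843), and the sign of the difference turned with quantile normalisation and without replicate 3 of either CHD4 hairpin. For the 48 h shScramble samples the genotype field names a CHD4 knockdown, against their titles, and their CHD4 counts lay far above those of every CHD4 hairpin library.

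**Figure D1:**
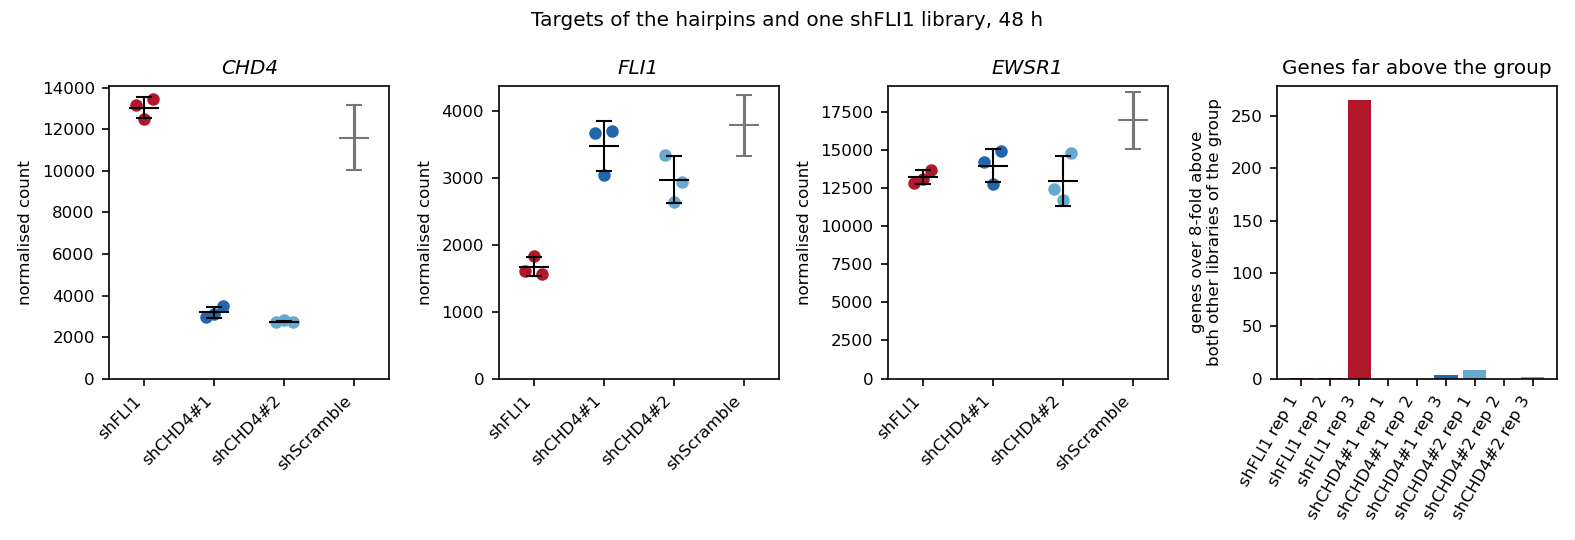
Normalised counts of CHD4, FLI1 and EWSR1 at 48 h in each shFLI1, shCHD4#1 and shCHD4#2 library (points; bars are mean and SD, n = 3) and as mean and SD of 5 shScramble libraries, with the number of genes over 8-fold above both other libraries of the group at the right. CHD4 is high with shFLI1, FLI1 is low with shFLI1, EWSR1 overlaps, and shFLI1 replicate 3 has 265 such genes.

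The knockdowns differed widely. With shFLI1, 4940 genes were called higher (22.6%) and 4938 lower (22.6%), and 2762 of the higher and 2148 of the lower genes lay at least 2-fold from each hairpin. At least 8-fold from each were 555 higher and 142 lower genes. All 3 shFLI1 values lay outside the range of the 6 CHD4 values in 4877 of the genes called higher and 4807 of those called lower, against a background of 26.3% of tested genes with all shFLI1 values above and 25.1% with all below. Without shFLI1 replicate 3, 4638 genes were higher and 4627 lower, of which 4472 and 4429 were calls with all libraries too. The even split of directions depends on scaling: with each library centred on its median, 4005 genes were called higher and 6104 lower, so 39.6% of calls were higher, and the median of all tested genes was -0.14 instead of 0.02. Of the genes called higher, 3572 were protein-coding, and of those called lower 3650 were. The hairpins against CHD4 were not alike in every gene, and 325 genes were called in opposite directions against shCHD4#1 and shCHD4#2.

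**Figure D2:**
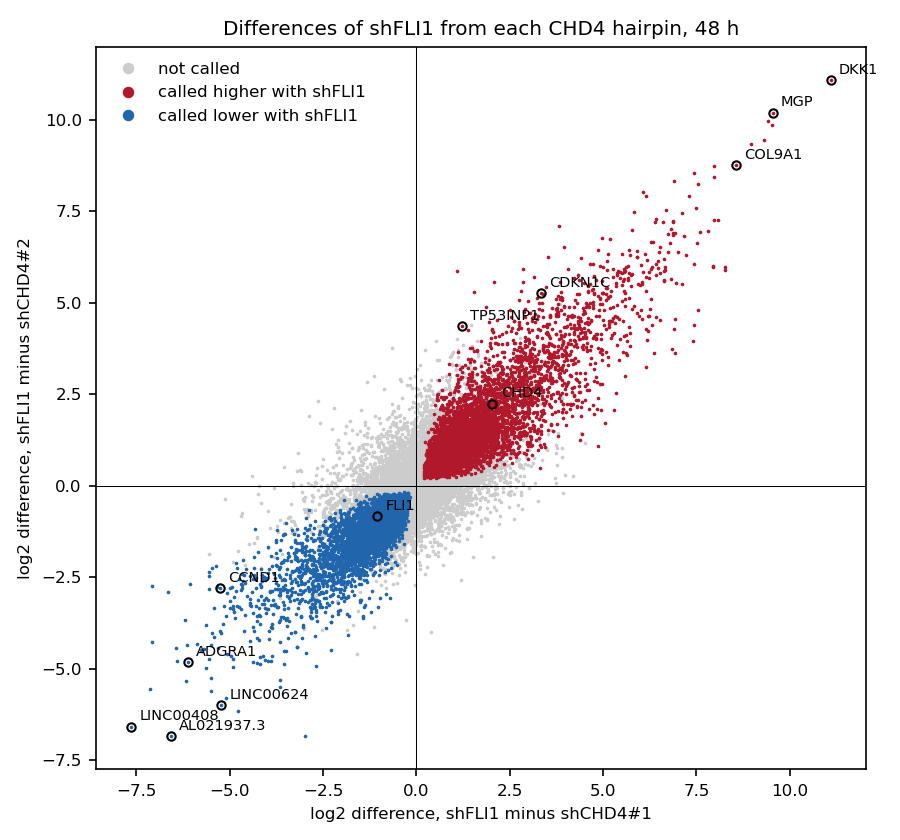
Log2 difference of shFLI1 from shCHD4#1 (horizontal) and from shCHD4#2 (vertical) for each tested gene at 48 h, with genes called higher in red and lower in blue and some named genes circled. Most genes lie along the diagonal, DKK1 is at the upper end, and CDKN1C, TP53INP1 and CCND1 lie off the diagonal because the hairpins gave different levels. Both axes use the same shFLI1 values, which favours the diagonal and is no measure of how alike the hairpins are.

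The 10 largest rises with shFLI1 were DKK1, MGP, SCARA5, SCUBE1, PTX3, SPARCL1, COL9A1, DHRS3, AC096751.2 and AC005162.2. DKK1, a secreted inhibitor of Wnt signalling (ENSG00000107984, chromosome 10, 52314296 to 52318042, plus strand), had 2480.3, 3288 and 1285 in shFLI1 libraries, against 0, 0 and 0 with shCHD4#1 and 0, 0 and 0 with shCHD4#2, and 0 to 0.933 in shScramble. Over all libraries these were 6197 reads with shFLI1 and 0 with the CHD4 hairpins, so DKK1 was at least 4897-fold higher per unit of depth, with 3 reads over the group as the floor. MGP, an inhibitor of calcification (ENSG00000111341, chromosome 12, 14881181 to 14885926, minus strand), had 3640.1, 4422 and 1800.4 in shFLI1 libraries, against 1.66, 7.79 and 1.98 with shCHD4#1 and 4.75, 0 and 2.11 with shCHD4#2. The CHD4 libraries held next to no transcript of either gene. MGP was higher by log2 9.87 (SE 0.57, limma adjusted p = 2.17e-07). SCUBE1, a secreted and surface protein (ENSG00000159307, chromosome 22, 43197283 to 43343388, minus strand), had 16652, 14073 and 12261 in shFLI1 libraries, against 11.6, 20.4 and 31.6 with shCHD4#1 and 14.3, 17.2 and 9.48 with shCHD4#2, log2 9.69 (SE 0.28, limma adjusted p = 1.01e-08). PTX3, a pentraxin of innate immunity (ENSG00000163661, chromosome 3, 157436789 to 157443628, plus strand), had 978, 1095 and 623 in shFLI1 libraries, against 1.66, 0 and 0 with shCHD4#1 and 0.951, 0 and 0 with shCHD4#2. PTX3 thus had 2380 reads with shFLI1 and 3 with the CHD4 hairpins, a ratio per unit of depth of 1881 with an exact 95% binomial interval of 643 to 9126, which covers counting error only.

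The scavenger receptor gene SCARA5 (ENSG00000168079, chromosome 8, 27869882 to 27992727, minus strand) had 4042 ± 1225 in shFLI1 libraries, against 4.38 ± 1.37 with shCHD4#1 and 5.84 ± 6.8 with shCHD4#2 (mean ± SD, n = 3 each), log2 9.69. SPARCL1, a matrix glycoprotein gene (ENSG00000152583, chromosome 4, 87473335 to 87531061, minus strand), had 3021 ± 1101 in shFLI1 libraries, against 5.45 ± 3.04 with shCHD4#1 and 5.69 ± 5.02 with shCHD4#2, log2 9.15. COL9A1, a collagen of cartilage (ENSG00000112280, chromosome 6, 70215061 to 70303083, minus strand), had 1435 ± 310.1 in shFLI1 libraries, against 2.97 ± 1.74 with shCHD4#1 and 2.59 ± 1.97 with shCHD4#2, log2 8.66. DHRS3, which reduces retinal to retinol (ENSG00000162496, chromosome 1, 12567910 to 12617731, minus strand), had 3904 ± 1999 in shFLI1 libraries, against 13.7 ± 4.32 with shCHD4#1 and 7.43 ± 2.04 with shCHD4#2, log2 8.36. The long noncoding genes AC096751.2 and AC005162.2, the second annotated as antisense, were at log2 8.21 and 7.89. These 10 genes were selected for size and for lack of overlap. In DKK1, MGP, SCARA5, SCUBE1, PTX3, SPARCL1 and DHRS3 the lowest shFLI1 value was that of replicate 3. Each of them also passed the test without it.

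Of the 10 largest falls with shFLI1, 6 were noncoding genes or pseudogenes. Over all genes, lincRNAs were called lower in 12.9% and higher in 26.1%, and antisense genes in 11.2% and 24.8%. LINC00408 (ENSG00000226250, chromosome 13, 18905439 to 18907810, plus strand) had 0, 0 and 0 in shFLI1 libraries, against 329, 145 and 161 with shCHD4#1 and 232, 66.9 and 54.8 with shCHD4#2, and 1.03 to 7.14 in shScramble. It had 0 reads with shFLI1 and 1078 with the CHD4 hairpins, at least 152-fold lower with shFLI1 against the same floor of 3 reads. TSPEAR-AS2 (ENSG00000182912, chromosome 21, 44517216 to 44525952, plus strand), an antisense gene, had 9.45, 5.75 and 11.4 in shFLI1 libraries, against 364, 358 and 630.5 with shCHD4#1 and 414, 439.99 and 554 with shCHD4#2, log2 -5.56 (SE 0.25, limma adjusted p = 4.67e-08). Both genes were near or under the shScramble level with shFLI1 and far above it with the CHD4 hairpins: TSPEAR-AS2 had 8.25 to 25.00 counts in shScramble. AL021937.3 was at log2 -6.71, the pseudogenes AACSP1 and ANKRD20A9P at -6.35 and -5.38, and LINC00624 at -5.61. AACSP1 did not pass the test against the replicate 3 libraries of the CHD4 hairpins alone (log2 -5.65, limma adjusted p = 0.018 for the mean of both hairpins, with 1 library of each). Antisense genes and pseudogenes are uncertain, since neither the strand setting nor the handling of shared reads is known.

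Protein-coding genes among the 10 largest falls were ADGRA1, CLSTN2, DDN and H2BC1. ADGRA1, an adhesion G protein-coupled receptor (ENSG00000197177, chromosome 10, 133070929 to 133131675, plus strand), had 27.2, 25.3 and 22.8 in shFLI1 libraries, against 1607, 2078 and 1796 with shCHD4#1 and 1000.2, 580.02 and 676 with shCHD4#2, and 1726 to 2253 in shScramble. CLSTN2, a calsyntenin of postsynaptic membranes (ENSG00000158258, chromosome 3, 139935185 to 140577397, plus strand), had 595, 712 and 639 in shFLI1 libraries, against 40234, 26599.9 and 25787 with shCHD4#1 and 23759, 14428 and 14612 with shCHD4#2, and 23559 to 36148 in shScramble. Both genes were at or near the control range with shCHD4#1, under it in most shCHD4#2 libraries and far under it with shFLI1 (log2 -5.47 and -5.13, limma adjusted p = 1.13e-08 and 1.83e-08). The dendritic protein gene DDN had 28.3, 39.1 and 28.03 in shFLI1 libraries, against 814, 1086 and 1152 with shCHD4#1 and 784, 793 and 871 with shCHD4#2, and 226 to 445 in shScramble, so the groups lay on both sides of the controls. The testis histone gene H2BC1 had 2.25 ± 0.15 in shFLI1 libraries, against 101 ± 38.8 with shCHD4#1 and 100.1 ± 14.3 with shCHD4#2, log2 -4.93.

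The sequences just upstream of 4 of these genes are shown because GGAA is the core motif bound by ETS factors such as FLI1. Of the 20 largest rises and falls, 10 matched the RefSeq promoter table (GRCh38.p14). Shown for the first 2 rises and the first 2 falls with an entry are the 250 bases before the start of the gene in RefSeq, for PTX3 only the 189 that lie before its start in GENCODE release 29. All are on the plus strand, 5′ to 3′, with GGAA and its reverse complement TTCC in capitals.
DKK1, chr10:52314031-52314280: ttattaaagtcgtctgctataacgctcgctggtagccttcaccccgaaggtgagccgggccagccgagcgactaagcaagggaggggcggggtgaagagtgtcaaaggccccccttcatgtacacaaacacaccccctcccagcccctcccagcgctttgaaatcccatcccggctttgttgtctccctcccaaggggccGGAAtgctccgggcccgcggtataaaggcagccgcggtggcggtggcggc
PTX3, chr3:157436600-157436788: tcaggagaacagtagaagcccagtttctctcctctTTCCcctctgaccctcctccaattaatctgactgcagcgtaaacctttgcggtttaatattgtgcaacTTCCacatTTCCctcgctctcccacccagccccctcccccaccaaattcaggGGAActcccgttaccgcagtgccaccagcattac
LINC00408, chr13:18905189-18905438: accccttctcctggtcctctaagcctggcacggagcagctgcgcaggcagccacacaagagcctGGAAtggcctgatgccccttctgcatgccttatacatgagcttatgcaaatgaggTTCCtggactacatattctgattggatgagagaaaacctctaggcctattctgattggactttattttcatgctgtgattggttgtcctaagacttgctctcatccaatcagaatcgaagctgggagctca
TSPEAR-AS2, chr21:44516965-44517214: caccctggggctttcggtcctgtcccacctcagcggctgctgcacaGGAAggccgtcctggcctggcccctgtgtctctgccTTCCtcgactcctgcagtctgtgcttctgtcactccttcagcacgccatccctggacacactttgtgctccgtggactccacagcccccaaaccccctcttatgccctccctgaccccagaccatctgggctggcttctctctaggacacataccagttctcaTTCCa
GGAA on either strand occurred 1 time in the 250 bases of DKK1, 4 times in the 189 bases of PTX3, 2 times in LINC00408 and 3 times in TSPEAR-AS2. Such a match was in 92.7% of 35116 windows of 250 bases and 86.8% of those of 189 bases, so it sets none of these genes apart. The tandem GGAAGGAA, which contains GGAA, and TGACTCA, a site of AP-1 factors, had no match in any of the 4 windows on either strand, against 3.06% and 4.20% of all windows of 250 bases and 2.27% and 2.99% of those of 189 bases.

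Genes known to be activated by EWS-FLI1 were mostly lower with shFLI1 than with either CHD4 hairpin. Of 39 tested, 27 were called lower and 3 higher, with a median of -1.30 beside 0.02 for all tested genes and the background of 22.6% in each direction. Without shFLI1 replicate 3, 25 were lower. All gene lists were chosen with earlier results of these data known, so their counts beside the background are a description. CCND1, the gene of cyclin D1 (ENSG00000110092, chromosome 11, 69641087 to 69654474, plus strand), had 155, 191 and 185 in shFLI1 libraries, against 6187, 7115 and 7187 with shCHD4#1 and 1616, 897 and 1271 with shCHD4#2, and 6329 to 14570.5 in shScramble. It was lower with shFLI1 by log2 -4.03 (SE 0.16, limma adjusted p = 3.14e-08), and the CHD4 hairpins differed from each other as well, shCHD4#2 lying under all shScramble values. NR0B1, a nuclear receptor gene and a marker of this tumour (ENSG00000169297, chromosome X, 30304206 to 30309598, minus strand), had 61.4, 78.2 and 56.1 in shFLI1 libraries, against 1387, 1652 and 1544 with shCHD4#1 and 687, 417 and 514 with shCHD4#2, log2 -3.78 (SE 0.17, limma adjusted p = 4.67e-08). The growth-driving transcription factor gene MYC had 1551, 2303 and 1594 in shFLI1 libraries, against 10268, 12072 and 13857 with shCHD4#1 and 9171, 12786 and 14209 with shCHD4#2, log2 -2.74 (SE 0.17, limma adjusted p = 3.07e-07). In all 3 genes the groups did not overlap. BCL11B, a zinc finger transcription factor gene, had 1047 ± 47.1 in shFLI1 libraries, against 7441 ± 295 with shCHD4#1 and 4292 ± 660.1 with shCHD4#2, log2 -2.43. IL1RAP, an interleukin receptor subunit gene, was at log2 -2.45, and STEAP1, a surface metalloreductase gene, at -3.08. TERT, the catalytic subunit of telomerase, had 5.91, 6.9 and 21.8 in shFLI1 libraries, against 231, 148 and 325 with shCHD4#1 and 354, 272 and 287 with shCHD4#2 and lay farthest down of the list (log2 -4.60).

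Not every activated target was lower. PLD2 and GSTM4, a phospholipase and a glutathione transferase gene, were higher with shFLI1 (log2 1.79 and 1.32). UPP1, a uridine phosphorylase gene, had 3.54, 6.9 and 1321 in shFLI1 libraries, against 0, 0 and 0 with shCHD4#1 and 0, 0 and 0 with shCHD4#2, so its level rests on replicate 3. It was called higher with and without that library. Both fits kept the filter over all 9 libraries, which UPP1 passed only through replicate 3, so the second call is no separate evidence of a rise. CD99, a surface glycoprotein used to diagnose this tumour, had 3241, 2928 and 2739 in shFLI1 libraries, against 6042, 6389 and 6075 with shCHD4#1 and 4143, 2389.7 and 3471 with shCHD4#2. The CD99 values overlapped those of shCHD4#2, and the gene was not called. Among 8 Ewing sarcoma markers, some of them in the same list, 6 were lower and 0 higher (5 lower without shFLI1 replicate 3), and all 8 were detected.

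Genes known to be repressed by EWS-FLI1 were mostly higher with shFLI1. Of 29 tested, 22 were called higher and 0 lower, with a median of 2.32. CDKN1C, which inhibits cyclin-dependent kinases (ENSG00000129757, chromosome 11, 2883213 to 2885773, minus strand), had 6720.4, 7379 and 5909 in shFLI1 libraries, against 497, 789 and 733 with shCHD4#1 and 203, 158 and 157 with shCHD4#2, log2 4.30 (SE 0.16, limma adjusted p = 1.86e-08). IGFBP5, which binds insulin-like growth factors, had 30452, 25030.1 and 19541 in shFLI1 libraries, against 1056, 638 and 1205 with shCHD4#1 and 891, 710.1 and 801 with shCHD4#2, log2 4.83 (SE 0.20, limma adjusted p = 3.26e-08). TPM1, an actin-binding tropomyosin (ENSG00000140416, chromosome 15, 63042632 to 63071915, plus strand), had 17932, 21895 and 14508 in shFLI1 libraries, against 1018, 900.5 and 939 with shCHD4#1 and 2527, 2489 and 3310.3 with shCHD4#2, and 1719 to 1958 in shScramble. In these genes every shFLI1 library was above every CHD4 library, and shCHD4#1 and shCHD4#2 themselves differed in CDKN1C and TPM1. IGFBP3, another binding protein of these growth factors, had 0, 0 and 357 counts in shFLI1 libraries and was not called. The cadherin gene CDH11 was at log2 -0.89, lower with shFLI1 than with shCHD4#1 and overlapping shCHD4#2, and was not called.

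Subunits of NuRD differed in both directions. Of 15 tested, 3 were called higher, CHD4 among them, and 5 lower (median -0.25; 8 lower with median centring), a share near the 45.2% of all tested genes called in either direction. GATAD2A, a zinc finger subunit that links CHD4 to the rest of the complex (ENSG00000167491, chromosome 19, 19385826 to 19508931, plus strand), had 4586, 4683 and 4248 in shFLI1 libraries, against 12777, 12806 and 12089 with shCHD4#1 and 10207, 9460.1 and 8928 with shCHD4#2, log2 -1.28 (SE 0.07, limma adjusted p = 1.55e-07). HDAC1, a deacetylase of the complex, had 7688, 7124 and 7602 in shFLI1 libraries, against 3646, 4161 and 4832 with shCHD4#1 and 4663, 4600.4 and 5391 with shCHD4#2, log2 0.73 (SE 0.10, limma adjusted p = 7.37e-05). The shFLI1 values were below all CHD4 libraries for GATAD2A and above all of them for HDAC1. CHD5, a relative of CHD4 found mainly in neurons, had 105, 135 and 131 in shFLI1 libraries, against 456, 136 and 371 with shCHD4#1 and 1175, 1473 and 1434 with shCHD4#2, log2 -2.33 (SE 0.31, limma adjusted p = 8.04e-05). CHD5 was thus highest with shCHD4#2, where all 3 libraries were above the shScramble range of 210.3 to 607, and replicate 2 of shCHD4#1 was next to the shFLI1 values. The metastasis-associated subunit genes MTA1 and MTA2 were lower at log2 -0.44 and -0.72, CDK2AP1 at -0.73, and the paralogue CHD3 was higher at 0.51.

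Regulators of the G1 phase were called in both directions. Among 19 G1 regulators 7 were called higher (36.8%) and 5 lower (26.3%), or 8 and 5 without shFLI1 replicate 3. The background was 22.6% of all tested genes in each direction. Of the 7 called higher, 5 were inhibitors (CDKN1A, CDKN1B, CDKN1C, CDKN2A and CDKN2C). CDKN1B, which encodes p27, had 5413, 5037 and 4925 in shFLI1 libraries, against 1779.8, 1656 and 1766 with shCHD4#1 and 2059, 2928 and 2888 with shCHD4#2, log2 1.27 (SE 0.11, limma adjusted p = 3.82e-06). CDKN1A, which encodes p21, had 785, 898 and 549 in shFLI1 libraries, against 68.1, 36.99 and 27.7 with shCHD4#1 and 123, 339 and 115 with shCHD4#2, log2 3.11 (SE 0.37, limma adjusted p = 3.57e-05). The kinase CDK6 was also higher (log2 2.53), while the D-type cyclins CCND1, CCND2 and CCND3 were lower (log2 -4.03, -1.13 and -0.53). Of 23 p53 target genes tested, 8 were higher (34.8%) and 6 lower (26.1%), with a median of -0.10, beside the same background. TP53INP1, a stress-induced p53 partner, had 4815, 4317 and 4281 in shFLI1 libraries, against 1712, 2024 and 2042 with shCHD4#1 and 215, 229 and 205 with shCHD4#2, log2 2.79 (SE 0.09, limma adjusted p = 1.13e-08). The CHD4 hairpins lay far apart in it. AEN, an exonuclease of apoptosis, had 423, 704 and 382 in shFLI1 libraries, against 2913, 2715 and 3022 with shCHD4#1 and 4497, 4815 and 5180.2 with shCHD4#2, log2 -2.94 (SE 0.16, limma adjusted p = 1.77e-07). The metabolic phosphatase TIGAR was at log2 -1.55.

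Genes of replication, mitosis and repair were called lower with shFLI1 more often than higher. Against shScramble the medians of these lists, in that order, were -0.87, -1.10 and -1.01 for shFLI1. For the CHD4 hairpins they were -0.45, -0.40 and -0.24, so the list medians were below the controls with both knockdowns. At an unadjusted p below 0.05 for the mean of both CHD4 hairpins, 2 replication genes and 0 repair genes were higher, and edgeR called 0 higher in both lists and DESeq2 1 replication gene. Of 32 DNA replication genes 17 were called lower and 0 higher (median -0.43; 16 lower and 2 higher without shFLI1 replicate 3). RFC3, a subunit of the clamp loader, had 1765, 2087 and 2004 in shFLI1 libraries, against 7588, 7139.6 and 6926 with shCHD4#1 and 6231, 5973 and 5560.3 with shCHD4#2, log2 -1.75 (SE 0.08, limma adjusted p = 4.84e-08). The origin recognition gene ORC1 was at log2 -1.58 and the replisome gene MCM10 at -1.77. Of 32 mitosis genes 19 were called lower and 1 higher (median -0.56). BUB1B, a spindle checkpoint kinase, had 2799, 3158 and 3467 in shFLI1 libraries, against 9199, 8224 and 8696 with shCHD4#1 and 6505, 6250.1 and 6831 with shCHD4#2, log2 -1.27 (SE 0.08, limma adjusted p = 4.48e-07). MAD2L1 of the same checkpoint was at -1.30 and cyclin A2, CCNA2, at -0.997. The exception was KIF20A, a kinesin of cytokinesis, which was higher with shFLI1 at 0.58.

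Of 30 DNA damage repair genes 23 were called lower and 0 higher (median -0.83). EXO1, a nuclease of DNA end resection and mismatch repair, had 1106, 1329 and 1123 in shFLI1 libraries, against 5790.3, 5327 and 5333 with shCHD4#1 and 4800.4, 4074 and 4600.1 with shCHD4#2, log2 -2.07 (SE 0.09, limma adjusted p = 3.85e-08). ATR, the kinase that responds to stalled replication forks, had 3852, 3952 and 3875 in shFLI1 libraries, against 10411, 8381 and 9163 with shCHD4#1 and 10371, 9547 and 9959 with shCHD4#2, log2 -1.30 (SE 0.08, limma adjusted p = 2.62e-07). Replication-dependent histone genes, whose transcripts peak in S phase and mostly lack a poly(A) tail, were lower in 33 of 37 tested and higher in 1, H4C9 (median -1.07; 30 lower without shFLI1 replicate 3). Their detection depends on how RNA was selected, and the part of library differences in their fall was not tested. The histone gene H2BC14 had 17.7, 20.7 and 18.7 in shFLI1 libraries, against 281, 224 and 253 with shCHD4#1 and 1083, 481 and 959 with shCHD4#2, and 35.05 to 88.3 in shScramble, so it was above the controls with the CHD4 hairpins.

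Genes of the matrix and of the contractile cytoskeleton were higher with shFLI1 in most cases. Of 32 collagens and matrix glycoproteins tested, 26 were called higher and 1 lower (median 2.25). COL3A1, a fibrillar collagen (ENSG00000168542, chromosome 2, 188974320 to 189012746, plus strand), had 111730.00, 116957 and 77598 in shFLI1 libraries, against 8826, 6111 and 7789 with shCHD4#1 and 10046, 9852 and 9692 with shCHD4#2, log2 3.55 (SE 0.14, limma adjusted p = 3.14e-08). COL5A2, a collagen that joins such fibrils (ENSG00000204262, chromosome 2, 189031896 to 189225312, minus strand), had 74697, 69774 and 49971 in shFLI1 libraries, against 6503, 5705 and 6153 with shCHD4#1 and 5302, 4546 and 4926 with shCHD4#2, log2 3.54 (SE 0.12, limma adjusted p = 1.46e-08). Both had their lowest shFLI1 value in replicate 3, still far above every CHD4 library. COL6A3, a chain of the microfibrillar collagen VI, was the 1 member lower with shFLI1, with 9.45, 9.2 and 5.19 in shFLI1 libraries, against 81.4, 72.04 and 53.4 with shCHD4#1 and 81.8, 52.4 and 35.8 with shCHD4#2.

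Of 26 actin cytoskeleton genes 14 were called higher and 1 lower (median 1.04). CALD1, an actin-binding protein of contractile cells (ENSG00000122786, chromosome 7, 134744252 to 134970728, plus strand), had 26820.2, 35040.5 and 20644 in shFLI1 libraries, against 2095, 1447 and 1755 with shCHD4#1 and 2407, 2333 and 2805 with shCHD4#2, log2 3.68 (SE 0.16, limma adjusted p = 4.63e-08). Vinculin, VCL, which links actin to adhesion sites, was at log2 2.33. The filamin FLNC was lower with shFLI1 (-1.12), since both CHD4 hairpins were at 16569.8 to 22284 counts while shFLI1 libraries had 8649, 9629 and 8476 and shScramble 5358 to 10397. Among 15 integrin subunit genes 9 were higher and 1 lower (median 1.21). ITGAV, the alpha V chain, had 17157, 18447 and 13437 in shFLI1 libraries, against 2777, 2563 and 2627 with shCHD4#1 and 5444, 6231 and 5992 with shCHD4#2, log2 2.04 (SE 0.10, limma adjusted p = 8.71e-08). Its partners ITGB8 and ITGB5 were at 3.15 and 1.73. YAP and TEAD target genes, which answer to cell shape and tension, were higher in 13 of 20 and lower in 2 (median 1.26). In that list YAP1 and WWTR1, the coactivators themselves, were at log2 1.45 and 1.97, and their DNA-binding partner TEAD4 was lower at -1.40. CCN2, a matricellular protein gene, had 1943, 2298 and 2129 in shFLI1 libraries, against 88.9, 70.1 and 59.3 with shCHD4#1 and 543, 1130.2 and 1597 with shCHD4#2, which also parts the CHD4 hairpins from each other.

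Immediate early genes and feedback genes of the ERK pathway were higher in 14 of 20 and lower in 0 (median 1.74). SPRY1, an inhibitor of receptor tyrosine kinase signalling, had 431, 501 and 305 in shFLI1 libraries, against 4.15, 6.81 and 4.94 with shCHD4#1 and 9.51, 16.3 and 15.8 with shCHD4#2, log2 5.42 (SE 0.27, limma adjusted p = 9.41e-08). DUSP6, the phosphatase of ERK, had 601, 695 and 543 in shFLI1 libraries, against 8.31, 15.6 and 12.8 with shCHD4#1 and 43.7, 18.97 and 49.5 with shCHD4#2, log2 4.83 (SE 0.31, limma adjusted p = 4.05e-07). Both genes were scarce in every CHD4 library. PHLDA1, a growth factor-induced gene, was at log2 4.49. TGF-beta ligands, receptors and SMADs were higher in 14 of 23 and lower in 2 (median 0.67). TGFBR3, or betaglycan, the coreceptor of TGF-beta (ENSG00000069702, chromosome 1, 91680343 to 91906335, minus strand), had 21455, 18181 and 15179 in shFLI1 libraries, against 659, 711 and 619.6 with shCHD4#1 and 402, 317 and 300.1 with shCHD4#2, log2 5.26 (SE 0.13, limma adjusted p = 4.02e-09). LTBP1, which stores the ligand in the matrix (ENSG00000049323, chromosome 2, 32946972 to 33399509, plus strand), had 21123, 25660.2 and 15765 in shFLI1 libraries, against 1419, 1219.8 and 1334 with shCHD4#1 and 934, 485 and 696 with shCHD4#2, log2 4.43 (SE 0.20, limma adjusted p = 4.67e-08). Every shFLI1 library was far above every CHD4 library in both genes. The ligand gene TGFB1 itself was lower, with 553, 530.1 and 633 in shFLI1 libraries, against 1104, 1227 and 1463 with shCHD4#1 and 1025, 935 and 1155 with shCHD4#2. Of 15 Wnt antagonists and beta-catenin targets 7 were higher and 3 lower, but only 4 were higher without shFLI1 replicate 3 and 4 against the replicate 3 libraries of the CHD4 hairpins alone. Besides DKK1, the secreted antagonist FRZB had 1074, 563 and 965 in shFLI1 libraries, against 13.3, 7.79 and 9.88 with shCHD4#1 and 11.4, 17.2 and 12.6 with shCHD4#2, log2 6.04 (SE 0.27, limma adjusted p = 4.64e-08). KREMEN1, a receptor of DKK1, was at 1.39.

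Interferon response and antigen presentation genes were higher in 14 of 27 and lower in 2 (median 0.97), with the same counts without shFLI1 replicate 3. With median centring 12 were higher and 2 lower. STAT2, the transducer of type I interferon signals, had 6387, 6375 and 5416 in shFLI1 libraries, against 2475, 2532 and 2689.8 with shCHD4#1 and 2032, 2075 and 2176 with shCHD4#2, and 1553 to 1753 in shScramble. IFI44L, an interferon-induced gene, had 8529, 7482 and 7904 in shFLI1 libraries, against 2467, 2764 and 2785 with shCHD4#1 and 1181, 615 and 880.2 with shCHD4#2, log2 2.39 (SE 0.16, limma adjusted p = 6.8e-07). HLA-E, a nonclassical class I molecule, was at log2 1.32. PSMB8, an immunoproteasome subunit, had 2.36, 0 and 129 counts in shFLI1 libraries and was not called. HOX genes, which pattern the body axis, were higher in 17 of 33 and lower in 0 (median 0.92). With median centring 14 were higher. Against shScramble the median over the list was 0.49 for shFLI1 and -0.29 for the CHD4 hairpins. HOXC4 had 1202, 1285 and 1416 in shFLI1 libraries, against 427, 441 and 438 with shCHD4#1 and 408, 447 and 372 with shCHD4#2, log2 1.62 (SE 0.10, limma adjusted p = 2.59e-07), HOXB13 was at 1.40 and HOXA3 at 3.01. Of 21 neuronal genes tested, 7 were called higher (33.3%) and 5 lower (23.8%). The background was 22.6% of all tested genes in each direction. DCX, a microtubule protein of young neurons, had 4188, 3750.03 and 2878 in shFLI1 libraries, against 531, 369 and 401 with shCHD4#1 and 244, 72.3 and 133 with shCHD4#2, log2 3.89 (SE 0.31, limma adjusted p = 1.79e-06). SYN1, a protein of synaptic vesicles, had 23.6, 24.1 and 18.7 in shFLI1 libraries, against 293, 335 and 323 with shCHD4#1 and 189, 90.3 and 134 with shCHD4#2, log2 -3.16 (SE 0.22, limma adjusted p = 8.11e-07). The calcium sensor SYT1 was at 2.79.

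Genes of ribosome assembly were almost all lower with shFLI1. Of 26 ribosome biogenesis genes 24 were called lower with shFLI1 and 0 higher (median -1.84). RRS1, an assembly factor of the large subunit (ENSG00000179041, chromosome 8, 66429028 to 66430733, plus strand), had 85.04, 101 and 94.5 in shFLI1 libraries, against 732, 709 and 892 with shCHD4#1 and 1181, 1334 and 1586 with shCHD4#2, and 663 to 1169 in shScramble. UTP20 and NOP16, factors of ribosomal RNA processing and subunit assembly, were at log2 -1.996 and -2.56. NPM1, the nucleolar histone chaperone nucleophosmin, was not called, since shFLI1 libraries had 42983, 37849 and 39778 counts, between 60449.6, 55235 and 61416 with shCHD4#1 and 18041, 11076 and 14917 with shCHD4#2. Glycolysis and hypoxia genes were lower in 12 of 25 and higher in 5 (median -0.49). HK2, the hexokinase that commits glucose to glycolysis, had 404, 466 and 666 in shFLI1 libraries, against 4145, 3473 and 3713 with shCHD4#1 and 4586, 4349 and 4605 with shCHD4#2, log2 -3.04 (SE 0.14, limma adjusted p = 5.33e-08). PFKP, a phosphofructokinase, was at -2.42 and the glucose transporter SLC2A1 at -1.70, while the hormone gene ADM was higher at 3.97.

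Cholesterol synthesis genes were higher with shFLI1 in 10 of 23 and lower in 1 (median 0.66), but 5 were higher against the replicate 3 libraries of the CHD4 hairpins alone. Against shScramble the median over the list was -0.09 for shFLI1 and -0.73 for the CHD4 hairpins, but members varied. HMGCS1, an early enzyme of the pathway (ENSG00000112972, chromosome 5, 43289395 to 43313512, minus strand), had 7059, 6666 and 5345 in shFLI1 libraries, against 3082, 4513 and 4244 with shCHD4#1 and 2005, 1519 and 1708 with shCHD4#2, and 4589 to 6786 in shScramble. Its values were lowest with shCHD4#2. SREBF2, the transcription factor that controls the pathway, had 10529 to 12538 with shFLI1 and 2893 to 8457 with the CHD4 hairpins, and 7307 to 9518 in shScramble (log2 1.29). The reductase gene TM7SF2 had 1432 to 1864 with shFLI1 and 648 to 853 with the CHD4 hairpins, and 636 to 1088 in shScramble (log2 1.13). In SREBF2 and TM7SF2 all shFLI1 values were above the controls.

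**Figure D3:**
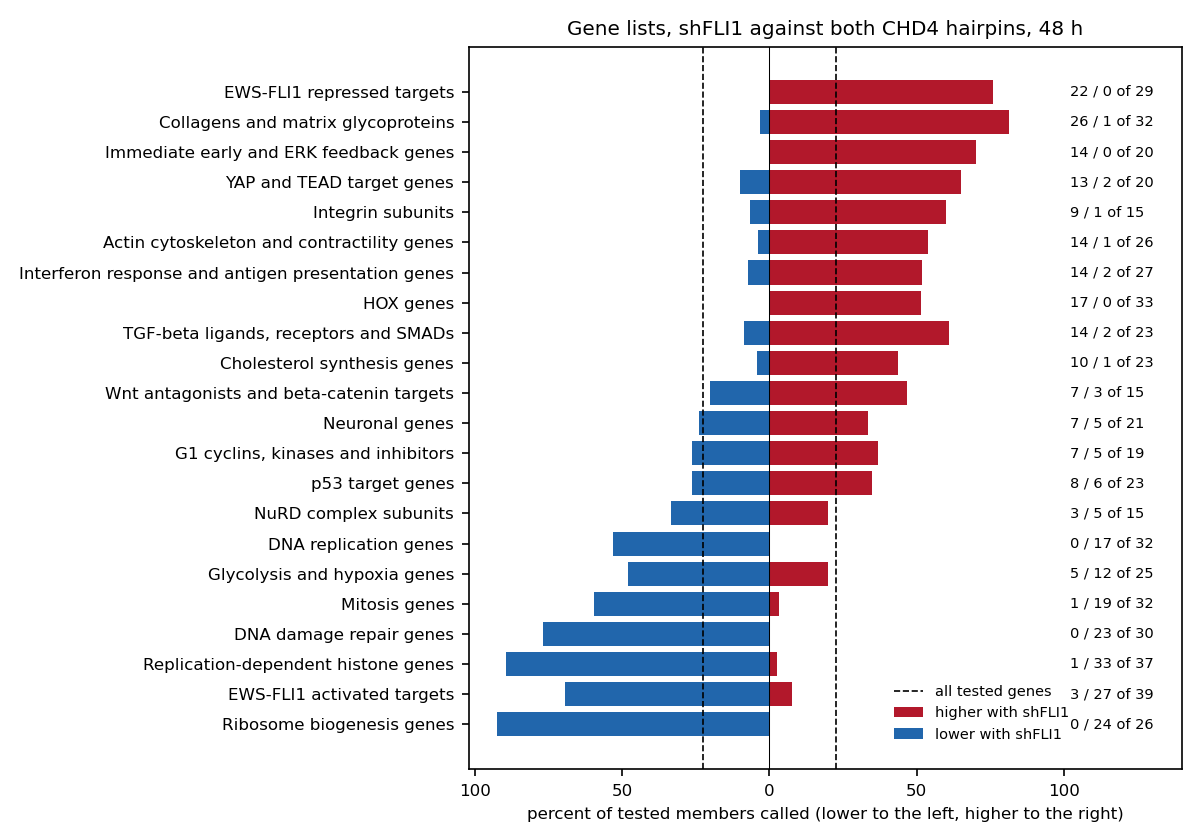
Percent of the tested members of each gene list called higher (right, red) or lower (left, blue) with shFLI1 than with both CHD4 hairpins at 48 h, with the counts higher / lower of tested members and the 22.6% of all tested genes in each direction as dashed lines. Matrix, repressed target and immediate early genes extend to the right, and ribosome biogenesis, histone and repair genes to the left.

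Markers of blood cells were at low counts. Of 10 blood cell markers 3 reached the test, summing to 159 to 270.5 counts over the list with shFLI1 and 86.4 to 193 with the CHD4 hairpins. PTPRC, which encodes CD45, was called higher with shFLI1, with 219.7, 124 and 174 in shFLI1 libraries, against 39.9, 22.4 and 31.6 with shCHD4#1 and 60.8, 58.7 and 44.2 with shCHD4#2. Of 9 epithelial markers 5 were tested and 0 called in either direction by limma (1 higher and 2 lower at an unadjusted p below 0.05, 1 higher by edgeR, 0 by DESeq2), with sums of 4786 to 5185 with shFLI1 and 4127 to 9875 with the CHD4 hairpins. Of 7 endothelial markers 3 were tested, and EMCN, endomucin, was higher with shFLI1, with 11364, 12407 and 8977 in shFLI1 libraries, against 2683, 1829 and 2125 with shCHD4#1 and 2893, 3058 and 2850.2 with shCHD4#2. EMCN was also present in shScramble, at 1391 to 2162. In bulk RNA, more cells of a type and more RNA per cell cannot be told apart. The part of other cell types in the results was not tested.

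The 5 shScramble libraries place each difference. Of the genes called higher with shFLI1, the shScramble mean lay nearer to or beyond the CHD4 mean in 4242 and on the shFLI1 side in 698. Of those called lower, it lay on the CHD4 side in 4250 and on the shFLI1 side in 688. Some genes parted to opposite sides, with all 5 shScramble values between the ranges of shFLI1 and the CHD4 hairpins: 331 genes called higher (1.52% of tested genes) and 193 called lower (0.884%). HSD17B2, a steroid dehydrogenase (ENSG00000086696, chromosome 16, 82035004 to 82098534, plus strand), had 3203, 2831 and 1463 in shFLI1 libraries, against 106, 61.3 and 59.3 with shCHD4#1 and 78.9, 15.4 and 38.96 with shCHD4#2, and 159 to 259 in shScramble. CA4, a membrane carbonic anhydrase (ENSG00000167434, chromosome 17, 60149936 to 60170899, plus strand), had 463, 475 and 442 in shFLI1 libraries, against 22.4, 30.2 and 47.4 with shCHD4#1 and 2.85, 0.903 and 4.21 with shCHD4#2, and 50.2 to 129.9 in shScramble. TRIM22, an antiviral ubiquitin ligase (ENSG00000132274, chromosome 11, 5689689 to 5737089, plus strand), had 523, 733 and 349 in shFLI1 libraries, against 31.6, 3.89 and 13.8 with shCHD4#1 and 45.6, 10.8 and 16.8 with shCHD4#2, and 62.5 to 146 in shScramble. The vesicle protein gene SYT11 was at log2 5.58, the Wnt modulator gene DACT2 at 4.71 and Z95118.2 at 4.35.

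On the other side, ACTL8, an actin-like gene (ENSG00000117148, chromosome 1, 17755313 to 17827063, plus strand), had 73.2, 41.4 and 55.03 in shFLI1 libraries, against 545, 634 and 636 with shCHD4#1 and 525, 1848 and 1067 with shCHD4#2, and 144 to 294 in shScramble. SH2D5, an adaptor gene of the brain, had 25.98, 29.9 and 34.3 in shFLI1 libraries, against 309.8, 345 and 466 with shCHD4#1 and 231, 299 and 318 with shCHD4#2, and 39.2 to 215 in shScramble. LINC00624 (ENSG00000278811, chromosome 1, 147258885 to 147517875, minus strand) had 24.8, 20.7 and 22.8 in shFLI1 libraries, against 1890.2, 638 and 592 with shCHD4#1 and 3359, 990.2 and 1024 with shCHD4#2, and 40.3 to 201 in shScramble. In these 3 genes the lowest CHD4 library was above the highest control and the highest shFLI1 library below the lowest control. LINC00408 and AL021937.3, among the largest falls, had the same arrangement, as did the pseudogene TSSC2 at log2 -4.94. In LINC00624, AL021937.3 and LINC00408 replicate 1 was the highest library of shCHD4#1 and of shCHD4#2.

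**Figure D4:**
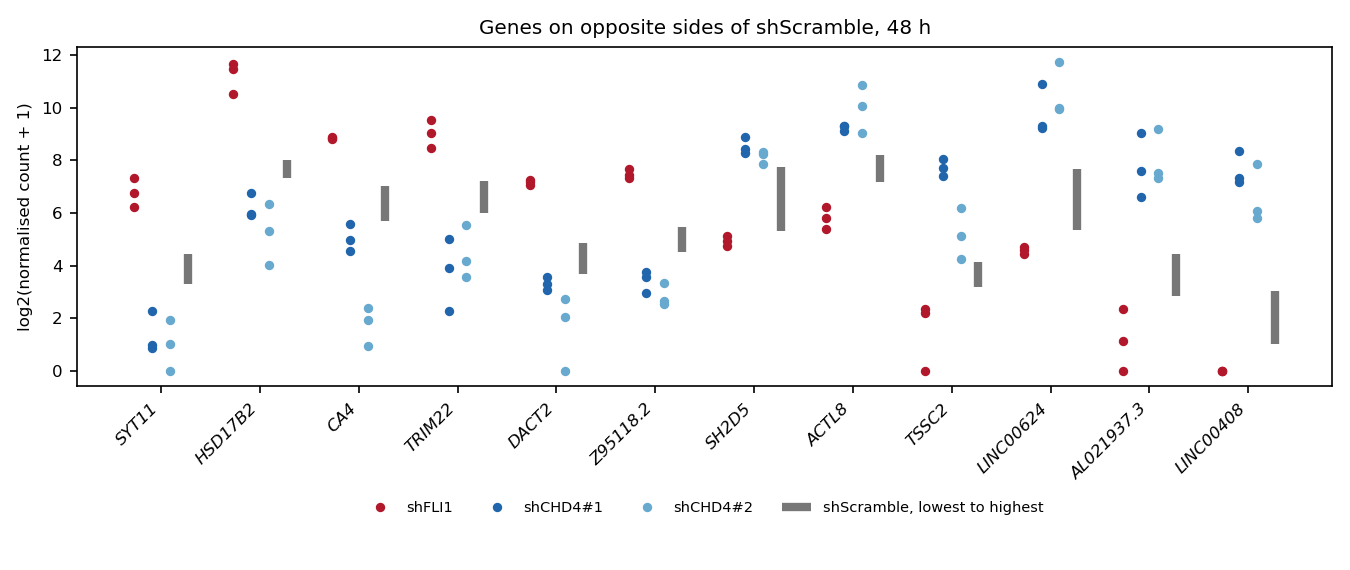
Log2 of normalised count plus 1 at 48 h for the 12 genes named for lying on opposite sides of shScramble, in each shFLI1 (red), shCHD4#1 (dark blue) and shCHD4#2 (light blue) library, with the range of 5 shScramble libraries as a grey bar. The first 6 genes are above the bar with shFLI1 and below it with the CHD4 hairpins, and the last 6 the reverse.

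The difference between the knockdowns was also compared with that at 24 h. The difference at 48 h minus that at 24 h was tested in 21352 genes over 18 libraries, and 1979 were higher (9.27%) and 2433 lower (11.4%) at 48 h, or 1807 and 2021 without shFLI1 replicate 3 of 48 h. Of 4781 genes called higher at 48 h and tested for the change, the difference was larger than at 24 h in 1491 and smaller in 29. Of 4895 called lower it lay farther below 0 in 1766 and less far in 45. These genes were chosen by their 48 h values, which favours a larger difference at 48 h, so these counts are a description. For DKK1 the mean was 2351 counts at 48 h and 110.3 at 24 h of shFLI1, and the difference from the CHD4 hairpins was larger at 48 h by log2 4.42 (limma adjusted p = 1.03e-05). DHRS3 had 3904 counts at 48 h and 113 at 24 h, larger by 6.04 (adjusted p = 1.98e-06). CCND1 was at log2 -4.03 at 48 h and -3.89 at 24 h, a change of -0.14 that did not pass the test (adjusted p = 0.765).

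The median of the mitosis genes lay on either side of 0 at the 2 times. Their median difference was -0.56 at 48 h and 0.64 at 24 h, and all 32 of 32 had a lower difference at 48 h, with and without shFLI1 replicate 3. CCNA2 averaged 1674 counts at 48 h and 5251 at 24 h with shFLI1, while shCHD4#1 averaged 3161 and 3933 and shCHD4#2 3551 and 4199 at those times. The change of the difference was -1.37 (SE 0.15, limma adjusted p = 8.97e-06). Histone genes had a lower difference at 48 h in 31 of 37, DNA replication genes in 21 of 32 and repair genes in 21 of 30, with 0 higher in each list. Immediate early genes had a higher difference in 15 of 20, matrix genes in 21 of 32, repressed targets in 18 of 29 and YAP targets in 12 of 20. Activated targets had medians of -1.30 at 48 h and -1.21 at 24 h, with 7 lower and 3 higher at 48 h of 39. HOX genes had 0.92 and 0.79, and 0 of 33 passed limma's test of the change (3 higher and 3 lower at an unadjusted p below 0.05). In cholesterol synthesis genes the difference was higher at 48 h in 3 of 23, but in 12 without shFLI1 replicate 3 of 48 h. NuRD subunits had 5 lower, or 3 without that library.

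**Figure D5:**
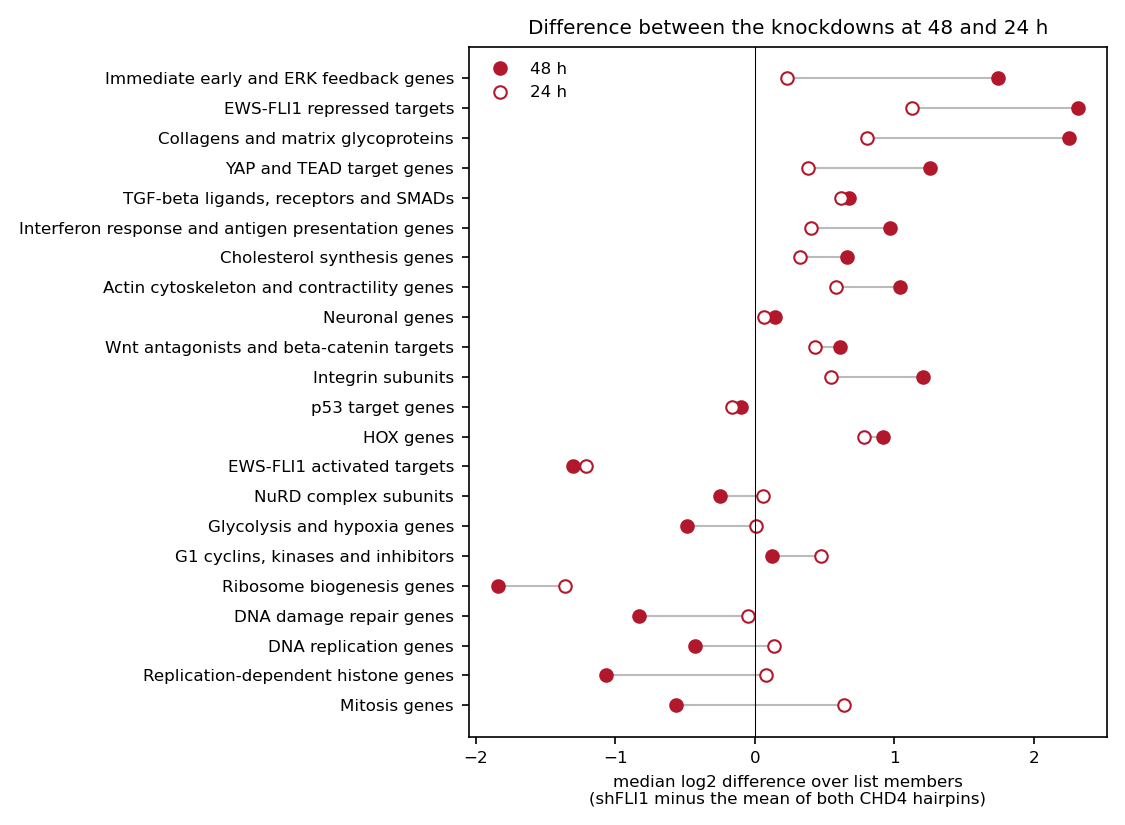
Median log2 difference of each gene list, shFLI1 minus the mean of both CHD4 hairpins, at 48 h (filled) and 24 h (open), with lists ordered by the median change of their members. Immediate early, repressed target and matrix genes moved to the right by 48 h, mitosis genes crossed 0 to the left, and HOX genes and activated targets stayed close.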

How the data were processed

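SK-N-MC cultures were profiled by RNA-seq of total RNA (stranded kit, paired ends, HiSeq2000, per the labels' protocols). Per the submitters' processing notes, the authors used HISAT2 2.1.0, SAMtools 1.7, FastQC 0.11.7, featureCounts 1.6.0 and DESeq2 1.34.0, on GRCh38. Whether counting used strand is not given in the sources used here. Each deposited signal is a gene's read count divided by a size factor, by the authors. Whole reads were recovered from 100% of the values checked, within a tolerance of 0.02. Values of high read number were rounded to whole reads without this check.

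From these values, limma-trend (limma 3.58.1, R 4.3.3) was run on log2 of the value plus 1 over 9 libraries in 3 groups, for genes with a mean of at least 10, with Benjamini-Hochberg adjustment. The change between times used 18 libraries in 6 groups. The scale understates changes of low genes. The test was tested on simulated data. Alternatives used edgeR 4.0.16 and DESeq2 1.42.0 on recovered reads, other scalings, filters and pseudocounts, a replicate block and left-out libraries. Fits with libraries left out kept the genes that passed the filter over all libraries. Counts without shFLI1 replicate 3 in gene lists were an alternative chosen after seeing the data.

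Members and gene lists were chosen with earlier results of these data known. Of the list members 553 were tested. Genes were named by rule: the 3 targets, the 10 largest rises and 10 largest falls without overlap and with a mean of at least 100, up to 3 genes per list with the smallest adjusted p, and 6 genes in each direction on opposite sides of shScramble, 90 in all. Other genes were chosen after their values were seen. Positions are from GENCODE release 29 (GRCh38).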

Additional observations from a re-analysis of the deposited data

Results flagged for a closer look

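In shScramble at 48 h, 1 of 5 libraries lay far from the other 4 in 8 of the 90 named genes. It was the highest for DKK1 (0.933 counts), ANKRD20A9P (15.2), LINC00624 (201) and TRIM22 (146), and the lowest for HDAC1 (5074), ID3 (2868), DCX (407) and SLC2A1 (2435). Chance gives such a flag in about 1 of 20 groups. That rate does not apply to DKK1, where a single read stood against 0 in the other shScramble libraries. No shScramble value entered a test.

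The difference between shFLI1 and the CHD4 hairpins changed between the times, in limma's test of the change, for 56 of the 90 named genes, against 9.27% higher and 11.4% lower of all genes tested. Most named genes were chosen by their 48 h difference, which favours a change, so this number is a description. Values are log2, 48 h minus 24 h. The positive changes were, largest first, DHRS3 6.04, MGP 5.95, PTX3 5.91, SCARA5 5.21, SCUBE1 4.50, DKK1 4.42, SPRY1 4.29, HSD17B2 4.04 and SPARCL1 3.74. They were followed by TRIM22 3.27, DUSP6 2.79, CALD1 2.59, LTBP1 2.28, CA4 2.03, TGFBR3 1.92, Z95118.2 1.85, ITGB8 1.71 and DCX 1.69. Further increases were FRZB 1.67, TPM1 1.601, COL5A2 1.57, COL3A1 1.35, TP53INP1 1.31, IFI44L 1.16, ITGB5 1.15, VCL 1.03 and HLA-E 0.99. Then followed ITGAV 0.80, YAP1 0.74, SREBF2 0.57, WWTR1 0.51 and STAT2 0.49. The negative changes were, farthest from 0 first, LINC00408 -2.66, CLSTN2 -2.27, TSSC2 -2.15, TSPEAR-AS2 -2.05, ACTL8 -2.04, LINC00624 -2.04, EXO1 -1.66, ORC1 -1.54 and MCM10 -1.44. Next were BUB1B -1.44, CCNA2 -1.37, MAD2L1 -1.37, SYN1 -1.30, PFKP -1.22, XRCC2 -1.13, STEAP1 -0.96, RFC3 -0.94 and SLC2A1 -0.86. The remaining negative changes were RRS1 -0.70, TIGAR -0.54, BCL11B -0.53, UTP20 -0.47, GATAD2A -0.45 and ATR -0.33.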

How the results depend on the processing

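All 90 named genes kept their direction and their side of the test under pseudocounts of 0.5 and 5, no filter, median centring, TMM, edgeR, DESeq2, 14 libraries, the replicate block, library kind as a term and without each shFLI1 library. With a mean of at least 50, 89 were tested and kept both. Library kind parts replicates 1 and 2 of both CHD4 hairpins from their replicate 3 and from all shFLI1 libraries. With this term 4271 genes were called higher and 4504 lower. EWSR1, which never passed the test, turned to log2 0.067 with quantile normalisation, 0.0031 without replicate 3 of shCHD4#1 and 0.028 without replicate 3 of shCHD4#2, with -0.057 to 0.028 over all libraries left out in turn. AACSP1 was at -5.65 and no longer called against the replicate 3 libraries of the CHD4 hairpins. With those libraries, shFLI1 exceeded the CHD4 hairpins by 3.72 percentage points in mitochondrial ribosomal RNA, by 5.52 in the 10 most abundant genes and by 0.000222 in processed pseudogenes, where all 9 libraries gave 4.97, 7.02 and a negative value. Leaving out each library gave 4.75 to 5.40, 6.47 to 7.41 and -0.0847 to -0.0516. With all 9 libraries the pseudogene difference did not pass the exact permutation test (exact permutation test, two-sided p = 0.107). Without shCHD4#1 replicate 3 the pseudogene difference passed it (exact permutation test, p = 0.0357). Without any other single library the pseudogene difference did not pass (exact permutation test, p = 0.125 to 0.25).

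Genes called ranged over these settings from 3965 to 5759 higher and from 3771 to 6104 lower, and without each library from 4227 to 4846 and from 4324 to 4780. The change between times gave 1414 to 2352 higher and 1734 to 2787 lower without each library. Replicate numbers did not pair shFLI1 with the CHD4 hairpins (correlations of deviations -0.128 to -0.0224), while libraries of shCHD4#1 and shCHD4#2 with the same number correlated at 0.215 to 0.550. The fit without a block treats the 6 CHD4 libraries as independent, and the replicate block gave 4989 higher and 5019 lower calls, and 2522 and 2926 for the change between times. The 3 libraries per group and the single hairpin against EWS-FLI1 limit what the counts can show. Genes under a mean of 10 were not tested.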
